A study of Mus musculus with 8 samples.

Results

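Glutamate handling was followed through 7 genes in the glia of aged mouse gray and white matter. They are the glutamate transporters Slc1a2 and Slc1a3, the AMPA receptor subunits Gria2 and Gria4, the metabotropic glutamate receptors Grm3 and Grm7, and the glutamine synthetase Glul. The genes were listed by name, with earlier results of these data known, and all 7 are among the 16999 genes counted in both genotypes. They were followed in the 15604 cells that the authors had clustered as oligodendrocytes, in 8 clusters, and in 1656 astrocytes. An astrocyte was any of the 29631 cells of all types with at least 3 unique molecular identifiers (UMIs) of Gja1, Aqp4 and Ntsr2 together, which encode a gap junction protein, a water channel and a neurotensin receptor.

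Cells came from 24-month-old mice and were sequenced in 8 libraries on the 10x platform. Wild-type mice (C57BL/6) gave 2 gray and 2 white matter libraries, and mice labelled Rag1 KO (Rag1-/- below, strain label NOD.129S7(B6)-Rag-1tm1Mom/J) gave 1 gray and 3 white matter libraries. Rag1 encodes a recombinase that lymphocytes need to build their antigen receptors. Gray matter was frontal cortex, and white matter was corpus callosum, optic tract and medial lemniscus. All mice were perfused, all tissue was dissociated with actinomycin D to limit transcription during isolation, and live cells were sorted with no cell type marker. The labels state that 2 tissue samples were combined per library, while the study's list of mice gives larger pools for the wild type and a single mouse for each library of the second Rag1-/- experiment. The gray and white matter libraries 1 of each genotype and 2 of the wild type came from the same animals. The sample titles give each genotype a batch 1 and a batch 2, called its first and second experiment here. Rag1-/- white matter libraries 2 and 3 are those of Rag1-/- batch 2. The strain label names a NOD background, whereas the study's methods name a Rag1-/- line of C57BL/6 background, so whether strain differed is unclear. Genotype coincided with experiment and with the version of the counting software, so these cannot be told apart, and the spread between libraries may be partly technical.

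Glutamate released at synapses and axons is cleared mostly by astrocytes through sodium-coupled transporters, and glutamine synthetase turns it into glutamine, which is returned to neurons. AMPA receptors are ligand-gated channels assembled from several kinds of subunit, whereas metabotropic receptors signal through G proteins. Cells of the oligodendrocyte lineage carry receptors of both classes, best known from their precursors, and mature oligodendrocytes contain glutamine synthetase.

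Libraries held 284 to 4106 oligodendrocytes, with medians of 8559 to 12622 UMIs per cell over the common genes. Summed UMIs were 2735825 to 43816134, so the white matter values rest on more reads than those of wild-type gray matter library 1, the smallest. Levels are given as CPM, the UMIs of a gene in such a sum scaled to 1000000 UMIs. The 11 oligodendrocyte markers summed to 48708 to 56658 CPM in these cells. Astrocytes made up 9.49% to 16.4% of the cells of gray matter libraries, but 0.535% to 1.83% of the first 3 white matter libraries and 8.05% and 5.75% of Rag1-/- white matter libraries 2 and 3, which thus stand apart. Median UMIs per astrocyte, over all deposited genes, were 6331 and 8086 in wild-type gray and 3502 (5 cells) and 10519 in wild-type white matter. They were 2733 to 3738 in the Rag1-/- libraries. The astrocyte rule is a count of UMIs, so which cells pass depends on depth, and the part of depth in the astrocyte shares and levels was not tested. Rag1 itself was at 0 to 0.52 CPM (0 to 23 UMIs) in wild-type and at 1.15 to 2.44 CPM (11 to 77 UMIs) in Rag1-/- oligodendrocytes, higher in every Rag1-/- library. A 3' tag need not lie in the deleted region, so these counts do not check the labels. No pair of libraries shared more than 15 cell barcodes.

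In oligodendrocytes, 5 of the 7 genes passed the test between white and gray matter averaged over genotypes (edgeR's quasi-likelihood test, Benjamini-Hochberg adjusted p under 0.05), against 3.3% of the 13067 genes tested. Slc1a2, Grm7, Gria2 and Glul were lower and Gria4 was higher in white matter, while Slc1a3 and Grm3 did not pass. The lower direction was called for 1.24% and the higher for 2.06% of all genes. Because the 7 genes were chosen with earlier results of these data known, comparing them with all genes, here and below, is no independent test. For 6 of the 7, all but Grm3, the 3 gray and 5 white matter libraries did not overlap, as was the case for 12.6% of all genes. The gray matter side of every Rag1-/- tissue test is 1 library, assumed to vary like the others, so its calls rest on that assumption. Within the wild type 3 genes passed (1.0% of all genes) and within Rag1-/- 2 passed (0.436%).

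**Figure D1:**
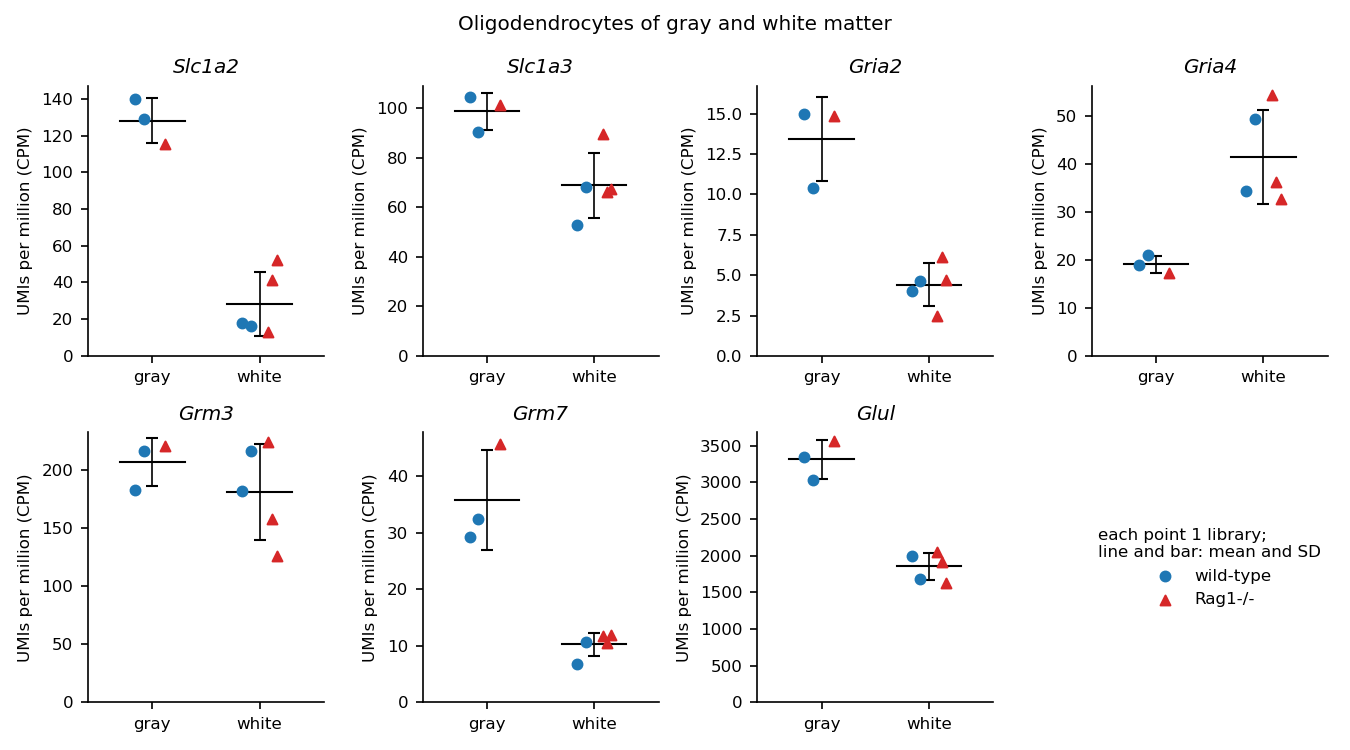
CPM of the 7 genes in the summed oligodendrocytes of each library (y axes) by tissue (x axes), with circles for wild-type and triangles for Rag1-/- libraries and lines and bars for the mean and SD of 3 gray and 5 white matter libraries. Only the points of Grm3 overlap between the tissues, and Gria4 is the one gene whose white matter points lie above those of gray matter.

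Slc1a2 (GRCm38 chr2:102658659-102790784, plus strand) encodes the main glutamate transporter of astrocytes. Its level in gray matter oligodendrocytes was 140.0 and 129 CPM in the wild-type libraries and 115 CPM in the Rag1-/- library. In white matter it was 18.1 and 16.2 CPM in the wild type and 12.9, 41.3 and 52.2 CPM in Rag1-/- libraries 1, 2 and 3. The 2 higher white matter values are those of the libraries with more astrocytes, and all 5 lay below gray matter. The log2 difference of white minus gray matter was -2.32 (SE 0.37, 95% interval -3.16 to -1.49, adjusted p = 0.0115). Within the wild type it was -2.97 (adjusted p = 0.0426), and within Rag1-/- -1.68 (adjusted p = 0.297), or -3.17 with the experiment as a block, where it passed but rests on the 1 pair of gray and white matter libraries of the first Rag1-/- experiment, and -3.19 without the second Rag1-/- experiment, when it is 1 gray against 1 white matter library with the spread taken from the wild type. The wild-type call was lost on leaving out any 1 of the 4 wild-type libraries (adjusted p of 0.123 to 0.276) or Rag1-/- white matter library 2 (0.0782), the Rag1-/- difference passed without Rag1-/- white matter library 1 (0.0138), and the averaged call was lost without wild-type gray matter library 2 (adjusted p = 0.0514).

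Slc1a3 (chr15:8634124-8710764, minus strand) encodes the second glial glutamate transporter. Oligodendrocytes of gray matter held 105 and 90.2 CPM in the wild type and 101 CPM in Rag1-/-. Those of white matter held 53.0 and 68.2 CPM in the wild type and 89.4, 66.0 and 67.4 CPM in Rag1-/-. White matter lay below gray matter throughout, though the nearest libraries were close (89.4 against 90.2 CPM), and the log2 difference of -0.54 (SE 0.13) did not pass (adjusted p = 0.0687). With the experiment as a block, which leaves 2 residual degrees of freedom and calls 11.2% of all genes (8.02% within the wild type and 3.63% within Rag1-/-), it was -0.40 and passed (adjusted p = 0.0021), as did the wild-type difference of -0.60 (adjusted p = 0.00037).

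Glul (chr1:153899944-153909723, plus strand) encodes glutamine synthetase, which joins glutamate and ammonia. Its level was 3342 and 3033 CPM in wild-type gray matter and 3568 CPM in Rag1-/- gray matter oligodendrocytes. In white matter it was 1999.9 and 1688 CPM in the wild type and 2046, 1919.8 and 1626 CPM in Rag1-/-. The tissues were well apart, with the genotypes intermingled in white matter. The log2 difference was -0.85 (SE 0.10, adjusted p = 0.0024), and both the wild-type difference of -0.77 (adjusted p = 0.0305) and the Rag1-/- difference of -0.93 (adjusted p = 0.0320) passed. The wild-type call was lost on leaving out any 1 wild-type library or Rag1-/- white matter library 2 (adjusted p of 0.0525 to 0.241), and the Rag1-/- call without Rag1-/- white matter library 2 or 3 or either wild-type gray matter library (0.0672 to 0.0844) and without the second Rag1-/- experiment (0.268). UMIs of Glul were present in nearly every oligodendrocyte (98.9% to 100% of cells).

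Gria2 (chr3:80681450-80802835, minus strand) encodes the AMPA receptor subunit that, once its RNA is edited, keeps calcium out of the channel. It was sparse, with 14.99 and 10.4 CPM in wild-type and 14.9 CPM in Rag1-/- gray matter. White matter held 4.02 and 4.63 CPM in the wild type and 2.47, 6.14 and 4.71 CPM in Rag1-/-. Every white matter library was lower than every gray matter library, with a log2 difference of -1.59 (SE 0.29, adjusted p = 0.0200). Neither genotype passed alone in edgeR without the block, whereas DESeq2 called both (adjusted p = 0.0256 in the wild type and 0.0129 in Rag1-/-). With the block both passed, at -1.37 in the wild type (adjusted p = 0.00030) and -2.60 in Rag1-/-, the latter from 1 pair.

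Gria4 (chr9:4417896-4796234, minus strand) encodes another AMPA receptor subunit. It ran the other way, from 19.0 and 21.0 CPM in wild-type and 17.4 CPM in Rag1-/- gray matter to 34.4 and 49.3 CPM in wild-type white matter. The Rag1-/- white matter libraries held 54.4, 36.2 and 32.7 CPM, all above gray matter. The log2 difference was 1.17 (SE 0.21, adjusted p = 0.0198). It was 1.08 in the wild type (adjusted p = 0.145) and 1.25 in Rag1-/- (adjusted p = 0.176). Both passed in DESeq2 (adjusted p = 0.00431 and 0.00429) and with the block, at 1.14 in the wild type and, from 1 pair, 1.64 in Rag1-/-. The averaged call of Gria4 was lost without wild-type gray matter library 1 (adjusted p = 0.0603) or 2 (0.0828), and that of Gria2 without either of these (0.0565 and 0.0625) or wild-type white matter library 2 (0.0634).

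Grm3 (chr5:9485541-9725170, minus strand) encodes a metabotropic receptor that lowers cyclic AMP. Its level was 183 and 217 CPM in wild-type and 221 CPM in Rag1-/- gray matter oligodendrocytes. White matter held 182 and 216 CPM in the wild type and 225, 158 and 126 CPM in Rag1-/-, so the tissues overlapped widely. The log2 difference of -0.18 had a 95% interval of -0.58 to 0.21 (adjusted p = 0.677), and the wild-type difference was 0.01 (-0.52 to 0.53).

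Grm7 (chr6:110645581-111567230, plus strand) encodes a metabotropic receptor known from presynaptic terminals, where it responds to high glutamate. It was at 29.2 and 32.4 CPM in wild-type and 45.8 CPM in Rag1-/- gray matter oligodendrocytes. In white matter it was at 6.87 and 10.6 CPM in the wild type and 11.7, 10.5 and 11.9 CPM in Rag1-/-. No white matter library came near gray matter, and the log2 difference was -1.87 (SE 0.14, adjusted p = 0.0008). Both the wild-type difference of -1.74 (adjusted p = 0.0079) and the Rag1-/- difference of -1.99 (adjusted p = 0.0100) passed. The averaged calls of Grm7 and Glul held on leaving out any 1 library, whereas the wild-type call of Grm7 was lost without gray matter library 2 (adjusted p = 0.173) and its Rag1-/- call without the second Rag1-/- experiment (adjusted p = 0.185).

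**Figure D2:**
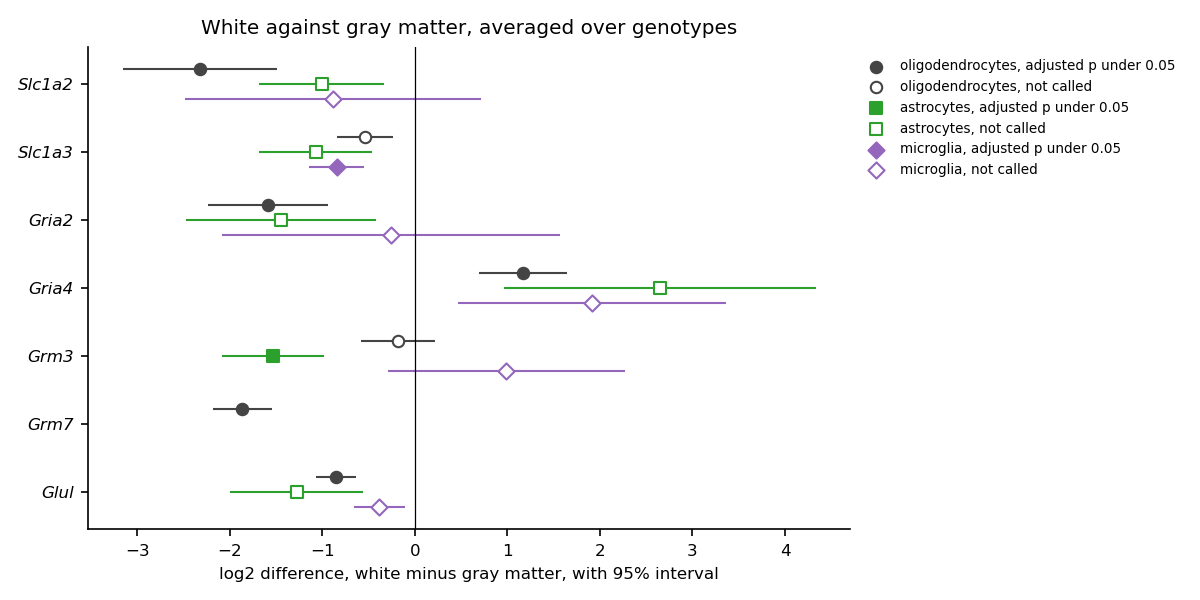
Log2 differences of white minus gray matter averaged over genotypes (x axis) with 95% intervals for the 7 genes (y axis), in oligodendrocytes (circles), astrocytes (squares) and microglia (diamonds), filled where the adjusted p is under 0.05. In oligodendrocytes Slc1a2 has the lowest value, -2.32, Gria4 has the one positive value, 1.17, and the interval of Grm3 spans 0. Grm7 is drawn in oligodendrocytes only, having too few counts in the other cells.

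The starts of 3 genes with tissue calls are shown because they moved in both directions, Glul and Grm7 lower and Gria4 higher in white matter. Each window runs from 250 bases before to 50 bases after a RefSeq start site of GRCm38.p6, at chr1:153899679-153899978 (plus), chr9:4796185-4796484 (minus) and chr6:110645348-110645647 (plus), read along the gene. Capitals mark the E-box CAGCTG and the CCAAT box (CCAAT, or ATTGG on the other strand), which do not overlap here. The SOX core ACAAT (or ATTGT) and the CRE core TGACG (or CGTCA) were also searched and are in none of the 3 windows.
Glul: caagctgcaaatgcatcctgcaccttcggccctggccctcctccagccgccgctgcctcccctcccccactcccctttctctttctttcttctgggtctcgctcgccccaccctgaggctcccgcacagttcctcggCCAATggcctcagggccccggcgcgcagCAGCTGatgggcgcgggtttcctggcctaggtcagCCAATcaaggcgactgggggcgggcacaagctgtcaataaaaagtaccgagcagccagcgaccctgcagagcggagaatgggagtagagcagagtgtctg
Gria4: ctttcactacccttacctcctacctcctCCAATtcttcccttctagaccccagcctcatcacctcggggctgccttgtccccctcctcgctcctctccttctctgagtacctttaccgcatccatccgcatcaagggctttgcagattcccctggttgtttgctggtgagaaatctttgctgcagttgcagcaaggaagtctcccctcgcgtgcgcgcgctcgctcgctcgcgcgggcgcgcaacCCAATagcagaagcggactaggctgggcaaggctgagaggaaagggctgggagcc
Grm7: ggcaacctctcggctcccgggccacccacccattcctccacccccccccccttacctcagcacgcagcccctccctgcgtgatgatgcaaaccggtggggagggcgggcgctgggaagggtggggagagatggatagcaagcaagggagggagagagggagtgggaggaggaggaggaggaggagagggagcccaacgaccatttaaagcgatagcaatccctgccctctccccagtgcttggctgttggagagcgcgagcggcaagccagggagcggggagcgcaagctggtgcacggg
The Glul window has the E-box 85 bases and CCAAT boxes 113 and 50 bases before the start, and the Gria4 window has CCAAT boxes 222 and 5 bases before it. The Grm7 window has neither. Of all 32851 such windows, 16.3% hold the E-box and 37.4% a CCAAT box, 31.0% the SOX core and 20.8% the CRE core on either strand. The windows of Glul, Gria4 and Grm7 are 64.3%, 59.7% and 66.7% G and C, against a median of 52.7% over all windows. These letters describe the windows and were not tested for use.

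Across the 8 oligodendrocyte clusters the genes did not share one order. The clusters were drawn from expression that includes these genes, so their levels are described without a test. The authors named them Oligo1a, 1b and 1c, Oligo2a, 2b and 2c, ARO (age-related oligodendrocytes) and IRO (interferon-responsive oligodendrocytes). Libraries with under 20 cells of a cluster were left out, which removed every gray matter library from Oligo2c, ARO and IRO.

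Slc1a2 was highest in Oligo1b, at 245, 194 and 171 CPM in the gray matter libraries. In white matter Oligo1b held 15.5 and 64.7 CPM in the wild type and 50.5, 85.2 and 140.1 CPM in Rag1-/-, and it exceeded Oligo1a, the next cluster in white matter, in 4 of 5 white matter libraries. The other clusters averaged 18.9 to 29.4 CPM in white matter, and neighbours in that order changed places between libraries. Astrocyte RNA was not measured by cluster, so its part in Slc1a2 here and in the tissue differences within clusters was not tested. Glul was also highest in Oligo1b, at a mean of 3743 CPM in gray and 2811 CPM in white matter, above Oligo2b (2363 CPM in white matter) in 8 of 8 libraries. It was lowest in ARO, at 1244 CPM. Grm7 averaged 22.1 CPM in Oligo1b and 17.0 CPM in Oligo2b of white matter, an order held in 4 of 5 white matter libraries, and 5.77 CPM in Oligo2a.

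The AMPA receptor subunits had other orders. Gria2 was highest in Oligo1a, at a mean of 34.9 CPM in gray and 12.3 CPM in white matter, above ARO in each of the 5 libraries that have both. Gria4 averaged 57.8 CPM in Oligo1c and 57.7 CPM in IRO of white matter, with IRO higher in 3 of the 4 libraries that have both, and was lowest in Oligo2a at 19.0 CPM, below Oligo2c in 5 of 5 libraries. Slc1a3 ranged from 37.6 CPM in ARO to 91.6 CPM in Oligo2b, where Oligo2a was next at 89.8 CPM and higher in 4 of 5 libraries. Grm3 spanned the narrowest relative range, 142 CPM in Oligo2a to 208 CPM in Oligo1c.

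**Figure D3:**
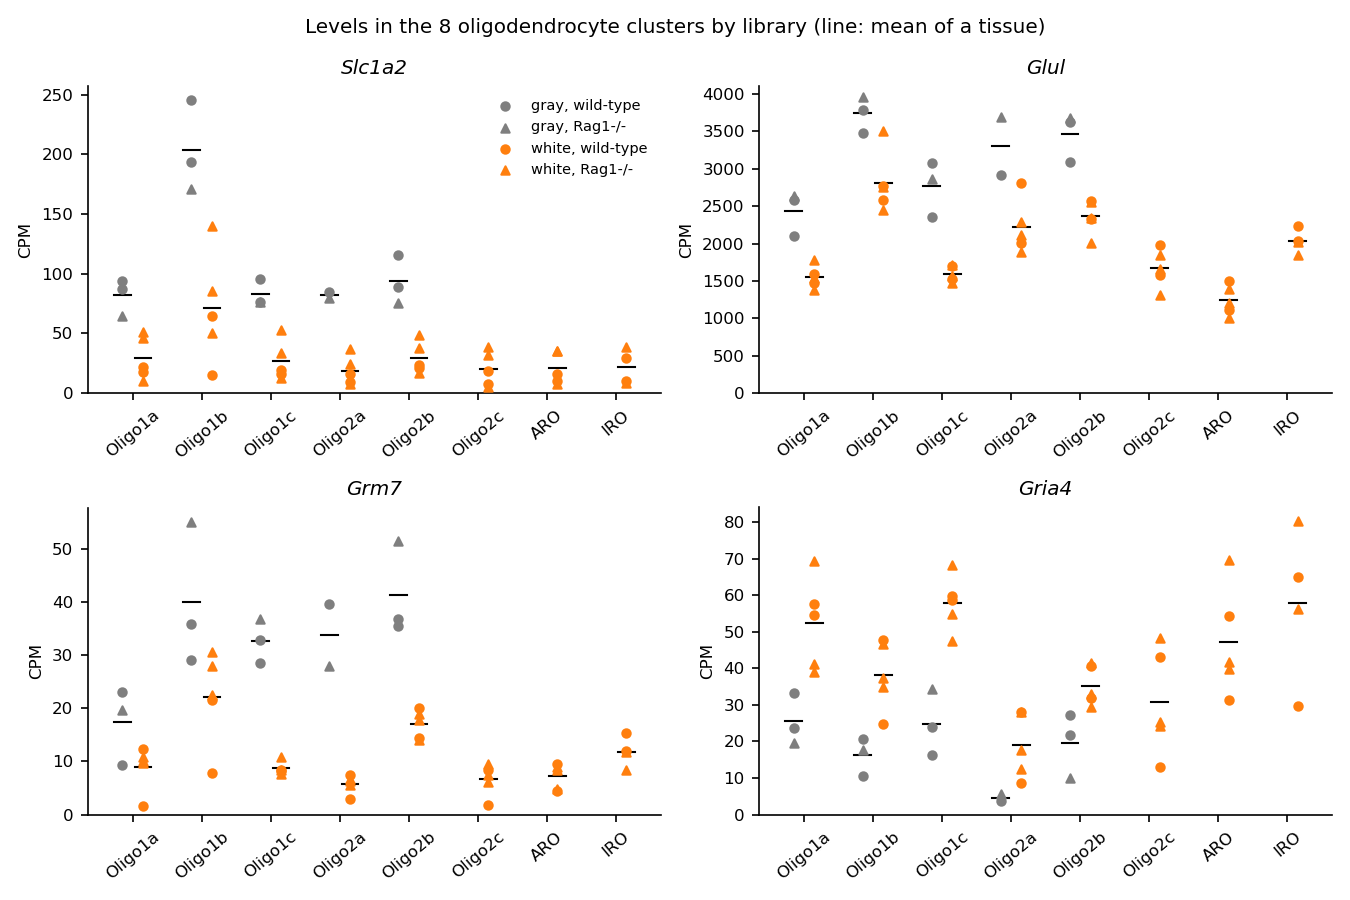
CPM of Slc1a2, Glul, Grm7 and Gria4 (y axes) in the 8 oligodendrocyte clusters (x axes), with 1 point per library with at least 20 cells, gray points for gray and orange points for white matter, circles for wild-type and triangles for Rag1-/-, and a line at the mean of each tissue. Oligo1b has the highest Slc1a2 and Glul levels in both tissues, and Gria4 lies higher in white matter in each cluster that has both tissues.

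The tissue differences were next taken within single clusters, which removes the differing shares of clusters between gray and white matter. Slc1a2 was lower and Gria4 higher in white matter without overlap in all 5 clusters that have gray matter libraries, where the libraries of 7.35%, 4.67%, 9.89%, 19.9% and 7.42% of all genes did not overlap (Oligo1a, 1b, 1c, 2a and 2b). Oligo2a has only 2 gray matter libraries. Glul did not overlap in 4 of these clusters, Grm7 and Gria2 in 3 each and Slc1a3 in 1, Oligo1c. In Oligo2b, averaged over genotypes, 4 of the 7 genes passed (1.3% of all genes), with log2 differences of -1.67 for Slc1a2 (adjusted p = 0.0040), -0.56 for Glul (adjusted p = 0.0104), -1.42 for Grm7 (adjusted p = 0.0005) and 1.25 for Gria4 (adjusted p = 0.0031). The same 4 passed in Oligo1c (0.797% of all genes), at -1.69, -0.78, -1.94 and 1.11. Gria2 passed in Oligo1a (-1.54, adjusted p = 0.046; 0.152% of all genes), Grm7 in Oligo2a (-2.36, adjusted p = 0.0255; 0.139%), and none in Oligo1b (0.108%). These 10 calls became 6 without wild-type gray or white matter library 2. With the block they became 21, and 1.94%, 1.15%, 3.54%, 1.89% and 4.08% of all genes passed in Oligo1a, 1b, 1c, 2a and 2b. Within the wild type Glul, Grm7 and Gria4 passed in Oligo1c (0.247% of all genes) and Slc1a2 in Oligo2b (-2.22, adjusted p = 0.0343; 0.154%), and none in Oligo1a, 1b and 2a (0.0474%, 0.0295% and 0.0277%). These 4 wild-type calls became 0 without either wild-type gray matter library and 1 without either wild-type white matter library. Within Rag1-/-, Grm7 passed in Oligo1c (0.0474%) and Grm7 and Gria4 in Oligo2b (0.408%), and none in Oligo1a, 1b and 2a (0.0474%, 0.0689% and 0.0185%). An average gave equal weight to Oligo1a, 1b, 1c, 2a and 2b, the clusters with at least 10 cells in every library. In it Slc1a2 was at 93.4 to 123 CPM in gray and 18.4 to 66.0 CPM in white matter. Slc1a3 then overlapped, at 83.1 to 112 CPM in gray and 59.2 to 98.6 CPM in white matter, while Gria2, Gria4, Grm7 and Glul did not.

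Cells that should lack a gene show how much of its level could be RNA taken up from other cells. For this, 9594 microglia were used, each with at least 3 UMIs of Cx3cr1, P2ry12 and Csf1r and under 3 of the astrocyte genes. Since shares of cells with a UMI rise with depth, they are given after thinning each cell to 3000 UMIs, with shallower cells left out. Median depths were 8559 to 12622 UMIs in oligodendrocytes and 5639 to 8455.5 UMIs in microglia.

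UMIs of Slc1a2 were found in 27.9%, 25.5% and 23.2% of thinned gray matter oligodendrocytes (57.0%, 50.2% and 43.4% unthinned) and in 3.45% to 13.0% of those of white matter (8.22% to 31.9% unthinned). Microglia had Slc1a2 in 23.6%, 10.7% and 5.09% in gray and 0.771% to 13.4% in white matter. By these shares oligodendrocytes lay above microglia in all libraries but Rag1-/- white matter library 3, where they were 13.0% and 13.4%. By CPM, microglia were higher in wild-type gray matter library 1 (165 against 140.0) and wild-type white matter library 2 (22.2 against 16.2). They were also higher in Rag1-/- white matter library 3 (72.3 against 52.2 CPM), and lower in the remaining libraries. Slc1a3 was in 13.7% to 24.8% of oligodendrocytes and in 25.5% to 55.7% of microglia, higher in microglia of every library. Microglia held far more Slc1a3 (109 to 301 CPM) than the 1.75 to 39.6 CPM that their share of astrocyte markers would bring, so they are no measure of its background. Microglia markers (8 genes) in oligodendrocytes were at 120 to 640 CPM in gray and 96.1 to 397 CPM in white matter. The part of microglial RNA in the Slc1a3 of oligodendrocytes was not tested.

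Grm7, Gria4 and Grm3 stood clear of the shares in microglia in every library. Grm7 was in 7.44% to 10.8% of gray and 1.91% to 3.31% of white matter oligodendrocytes, and in at most 0.554% of microglia. Gria4 was in 4.31% to 5.55% of gray and 9.22% to 14.7% of white matter oligodendrocytes, and in at most 1.24% of microglia. Grm3 was in 31.2% to 48.6% of oligodendrocytes and at most 4.14% of microglia. Gria2 and Glul were nearer to microglia. Gria2 was in 3.15% to 4.70% of gray and 0.841% to 1.97% of white matter oligodendrocytes, against 0.27% to 1.59% and at most 1.80% of microglia, and in Rag1-/- white matter library 3 it was below microglia. Glul was in 94.8% to 99.7% of oligodendrocytes and 62.9% to 83.8% of microglia. Microglia held 411 to 837 CPM of Glul, against the 0.895 to 40.3 CPM that their astrocyte markers would bring. Oligodendrocyte markers in microglia summed to 1288 to 2005 CPM in gray and 1487 to 7071 CPM in white matter. The part of oligodendrocyte RNA in the Glul of microglia was not tested, so microglia are not used as a measure of its background.

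Astrocyte RNA was also measured directly through 10 defining markers, 7 of which (Gjb6, Slc4a4, Slc7a10, Cldn10, Fgfr3, Acsbg1 and Mlc1) had no part in choosing cells, while the other 3 are the rule genes that chose astrocytes and limited microglia. In oligodendrocytes all 10 were above 0 in 7 libraries and 8 in wild-type white matter library 1, where Slc7a10 and Fgfr3 were at 0. They summed to 69.1, 24.2 and 42.0 CPM in gray and to 6.20, 5.71, 9.07, 21.4 and 30.3 CPM in white matter, so gray matter and the 2 libraries richer in astrocytes were higher. As a share of the level in the astrocytes of the same library this was 0.395% to 0.786% in gray and 0.131% to 0.542% in white matter (wild-type white matter library 1 rests on 5 astrocytes). With the 7 markers alone, an alternative chosen after seeing the data, it was 0.471% to 0.888% in gray and 0.123% to 0.627% in white matter. Of the 22 astrocyte markers, 4 were called lower in white matter oligodendrocytes (Acsbg1, Aldoc, Gjb6 and Sparcl1) and 1 higher (Gfap).

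If that share of astrocyte RNA were present, it would bring 61.8, 24.2 and 27.3 CPM of Slc1a2 in gray and 4.31, 4.79, 4.80, 17.2 and 25.9 CPM in white matter. The measured levels were 2.27, 5.35 and 4.22 times these in gray and 4.20, 3.38, 2.70, 2.40 and 2.01 times in white matter. By the 7 markers alone they were 2.00, 4.48 and 3.72 times in gray and 4.82, 2.70, 2.28, 2.46 and 1.74 times in white matter. Microglia, too, held 1.31 to 3.92 times the Slc1a2 level that their markers would bring, or 1.25 to 2.75 times by the 7 markers, a range that overlaps that of oligodendrocytes. Slc1a3 was at 3.32 to 25.7 times the level that the 10 markers would bring in oligodendrocytes and at 7.61 to 79.4 times in microglia. In oligodendrocytes with 0 UMIs of Gja1, Aqp4 and Ntsr2, Slc1a2 was at 130, 116 and 102 CPM in gray and at 11.99 to 46.3 CPM in white matter, a log2 difference of -2.29 (adjusted p = 0.0119). Since these 3 genes are sparse in oligodendrocytes, a cell that holds free astrocyte RNA can have 0 of their UMIs. The filter therefore cannot take out all such RNA. The part of free astrocyte RNA in the difference of Slc1a2 was not tested.

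For Gria2, the same share would bring 9.54, 5.40 and 6.43 CPM in gray matter, and the measured level was 1.57, 1.93 and 2.31 times that. In white matter it was 7.81 times in wild-type library 2 and 5.45, 1.43 and 0.95 times in Rag1-/- libraries 1, 2 and 3, while the 5 astrocytes of wild-type library 1 held no UMI of Gria2. Neuron markers (10 genes) moved with it, at 13.7 to 17.7 CPM in gray and 1.3 to 7.0 CPM in white matter oligodendrocytes, with Camk2a, Nrgn and Snap25 called lower. Their part in the difference of Gria2 was not tested. For the remaining genes astrocyte RNA at these shares would bring at most 32.0 CPM of Glul, 2.37 CPM of Grm3, 0.0577 CPM of Gria4 and 0.0191 CPM of Grm7 in any library, and its part in their differences was not tested. OPC markers (8 genes) were at 231 to 289 CPM in gray and 187 to 286 CPM in white matter oligodendrocytes. In wild-type gray matter library 1 only Cspg4, Vcan and Bcas1 of these were above 0, so the sums need not measure RNA of precursors.

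**Figure D4:**
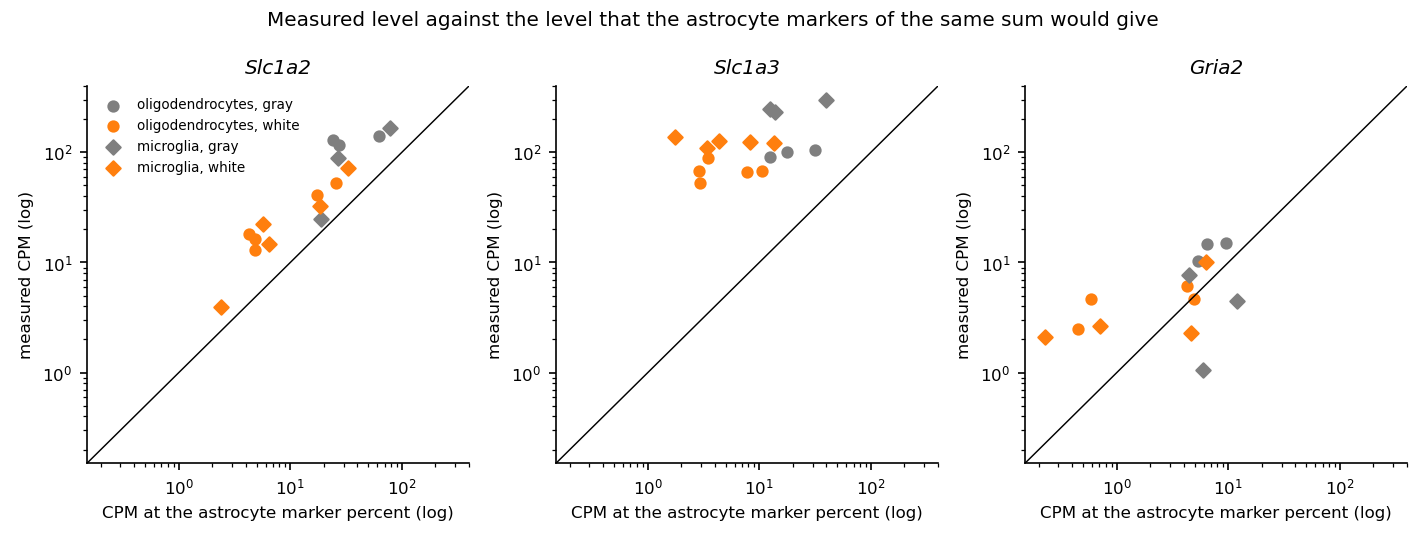
Measured CPM of Slc1a2, Slc1a3 and Gria2 (y axes, log) against the CPM that astrocyte RNA would bring at the share given by the 10 astrocyte-defining markers (x axes, log), with 1 point per library, circles for oligodendrocytes and diamonds for microglia, gray points for gray and orange points for white matter, and a line where the values are equal. All points of Slc1a2 lie above the line, the microglia among the oligodendrocytes, while the points of Gria2 lie on both sides; values of 0 are not drawn.

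Between genotypes in white matter none of the 7 genes passed in all oligodendrocytes (0.911% of all genes) or in any of the 8 clusters (0.73%, 0.571% and 0.92% in Oligo1a to 1c, 0.757%, 0.87% and 0.891% in Oligo2a to 2c, 0.99% in ARO and 0.614% in IRO). Members did pass within clusters without the filter on low counts and on leaving out some single libraries, so their absence there depends on the setting. Summed over all oligodendrocytes, none of the 7 separated the 2 wild-type from the 3 Rag1-/- libraries, as 27.4% of all genes did. Within clusters the genotypes did not overlap for Gria2 in Oligo1a (lower in Rag1-/-), Grm7 in Oligo1b (higher), Grm3 in Oligo2a (lower) and Glul in IRO (lower, 2 libraries a genotype), 1 gene in each. Of all genes 24.5%, 24.9%, 24.8% and 31.6% did so in these clusters, and 24.2%, 23.5%, 22.1% and 23.2% in Oligo1c, 2b, 2c and ARO, where no member did. The log2 difference of Rag1-/- minus wild-type was 1.12 for Slc1a2 (95% interval 0.04 to 2.21, adjusted p = 0.586). It was -0.36 without the second Rag1-/- experiment and 1.53 without Rag1-/- white matter library 1, when it passed (adjusted p = 0.0019) and the Rag1-/- libraries left are those richer in astrocytes. Astrocyte-defining markers moved with it over all libraries, at a median log2 difference of 2.17 with 0 of 10 called, and their part was not tested. The intervals were -0.20 to 0.33 for Glul, -0.50 to 0.50 for Gria4 and -0.75 to 0.86 for Gria2. The difference between the tissue contrasts of the genotypes passed for none of the 7, nor for any of the 13067 genes in edgeR with all libraries and no block (0.0%), of which 236 were at an unadjusted p under 0.05. DESeq2 called 3 genes, the block 6, and leaving out wild-type gray matter library 1 or Rag1-/- white matter library 1 gave 2 and 4, with no member among any of these. For Slc1a2 it was 1.29 (-0.46 to 3.04).

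In astrocytes, the cells best known for glutamate uptake and glutamine synthesis, Grm3 alone passed between the tissues averaged over genotypes (2.67% of 11745 genes), and 5 of the 6 genes tested did not overlap (13.5% of all genes). The 10 defining markers, 3 of them the rule genes, summed to 3030 to 9204 CPM in the astrocytes of the 7 libraries used and to 4.56 to 86.8 CPM in microglia. The full list of 22 markers does not separate these cells, at 16984 to 49944 CPM in astrocytes and 24073 to 40801 CPM in microglia. Wild-type white matter library 1 was left out, having 5 astrocytes. Grm3 was at 302 and 239 CPM in wild-type and 425 CPM in Rag1-/- gray matter astrocytes. It was at 112 CPM in wild-type and 125, 154 and 129 CPM in Rag1-/- white matter, each below gray matter. The log2 difference was -1.54 (SE 0.24, adjusted p = 0.0287), against -0.18 in oligodendrocytes. The difference between cell types was not tested, and the call in astrocytes was lost without Rag1-/- white matter library 3 (adjusted p = 0.0690) or wild-type gray matter library 1 or 2.

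The transporters, abundant in astrocytes, were also lower in white matter but did not pass. Astrocyte markers moved with them, with 8 of 22 called lower and 1 higher (Gfap) in white matter astrocytes at a median log2 difference of -1.20, and their part was not tested. Slc1a2 was at 7863 and 6114 CPM in wild-type and 5997 CPM in Rag1-/- gray matter astrocytes, and at 2546 CPM in wild-type and 3660.1, 5339 and 4789 CPM in Rag1-/- white matter. Slc1a3 was at 4008, 3181 and 3889 CPM in gray and at 1539, 2654, 2389 and 1950.3 CPM in white matter. Neither overlapped between the tissues, with log2 differences of -1.01 (adjusted p = 0.105) and -1.07 (adjusted p = 0.0691). As a mean over cells Slc1a2 did overlap, at 6843 CPM in Rag1-/- white matter library 2 against 6530 CPM in Rag1-/- gray matter, while Slc1a3 did not. Glul, at 4079, 2969 and 3819.6 CPM in gray and 1376, 1355, 2389 and 1869 CPM in white matter, differed by -1.28 (adjusted p = 0.0680).

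Gria2 in astrocytes was at 1214, 1366 and 1409.6 CPM in gray and at 315, 345, 1331 and 915 CPM in white matter, where Rag1-/- library 2 reached gray matter levels and library 3 lay below them (log2 difference -1.45, adjusted p = 0.1205). Gria4 was sparse, at 0 to 3.13 CPM in gray and 8.53 to 34.1 CPM in white matter (2.64, adjusted p = 0.0934), and Grm7, at 0 to 3.79 CPM, had too few counts to be tested. With the experiment as a block, which leaves 1 gray and white matter pair per genotype and 1 residual degree of freedom, 5 genes passed, all but Slc1a3 of those tested (11.5% of all genes), and DESeq2 called 5, all but Gria4 (3.58%). Oligodendrocyte markers in these cells summed to 3331 to 5349 CPM in gray and 4994 to 22153 CPM in white matter, highest in wild-type library 2. Microglia markers were at 1551 to 8923 and 606 to 5125 CPM, neuron markers at 21.9 to 66.0 and 101 to 164 CPM and OPC markers at 46.2 to 113 and 91.4 to 461 CPM in gray and white matter. The part of these other cells in the differences was not tested. Only 2 of the 8 OPC markers were above 0 in the astrocytes of wild-type gray matter library 1. With at least 6 UMIs of the rule genes, Gria4 was at 0, 0.74 and 3.17 CPM in gray and at 0 CPM in wild-type (21 cells) and 9.97, 18.6 and 8.21 CPM in Rag1-/- white matter, and did not pass (adjusted p = 0.942). No member passed within the wild type (0.00851% of all genes), within Rag1-/- (0.0%), between genotypes (0.136%) or for the difference of tissue contrasts (0.0%). Wild-type white and Rag1-/- gray matter astrocytes are 1 library each, so each of these tests has an arm of 1 library that is assumed to vary like the others, and they show little about whether the groups differ.

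In microglia, Slc1a3 was the 1 member that passed, and it and Glul did not overlap between the tissues (28.3% of all genes). It was at 301, 230 and 247 CPM in gray and at 109 to 139 CPM in white matter (log2 difference -0.84, adjusted p = 0.0059; 9.79% of 12677 genes), and it also passed within the wild type (-0.91, adjusted p = 0.0257; 4.87%). The wild-type call was lost without gray matter library 1 (adjusted p = 0.149) or 2 (0.0886), white matter library 2 (0.0978) or the second Rag1-/- experiment (0.0529). Glul was at 837, 639.9 and 622 CPM in gray and at 411 to 482 CPM in white matter (-0.39, adjusted p = 0.0815), and DESeq2 called it (adjusted p = 0.0320). None passed within Rag1-/- (0.749%), between genotypes (1.07%) or for the difference of tissue contrasts (0.0%). Slc1a2 in microglia was at 165, 88.5 and 24.9 CPM in gray and at 3.93 to 72.3 CPM in white matter, with overlap, and was called with the block averaged over genotypes and within the wild type (9.48% and 6.86% of all genes). Astrocyte-defining markers in microglia had a median log2 difference of -1.53 between the tissues, with 0 of 10 called. Microglia markers summed to 29137 to 29473 CPM in gray and 23638 to 26603 CPM in white matter microglia. Neuron markers were at 15.7 to 52.3 and 2.93 to 39.4 CPM. The part of these markers in the differences of the members was not tested.

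The wider glutamate pathway was read in oligodendrocytes through lists of its genes. Averaged over genotypes, the test called 2 of 55 as higher and 3 as lower in white matter (2.06% and 1.24% of all genes, 3.3% in either direction), with a median log2 difference of -0.04 against 0.01 over all genes. Grik1, a kainate receptor subunit, was at 3.77 to 6.24 CPM in gray and 8.38 to 13.2 CPM in white matter (1.23, adjusted p = 0.0169), and Olfm1, a secreted protein found with AMPA receptors, was at 50.5 to 54.9 and 75.8 to 83.8 CPM (0.63). The 3 that fell are all transporters, namely the glutamine carriers Slc38a1 (-1.77) and Slc38a2 (-0.93) and the mitochondrial glutamate carrier Slc25a18 (-2.81), out of 12 transporters tested, whose median was -0.54 and for which the lower direction has the background of 1.24%. Slc38a2 was at 761 to 872 CPM in gray and 334 to 572 CPM in white matter, whereas Slc38a1 (3.52 to 8.06 against 1.35 to 2.47 CPM) and Slc25a18 (1.92 to 4.29 against 0.168 to 1.19 CPM) were sparse. Astrocyte markers (median -1.64) and neuron markers (median -2.81) moved with these genes in oligodendrocytes, and their part was not tested. None of 17 genes of glutamate and GABA metabolism passed, among them Gclm (0.38, adjusted p = 0.0518), Folh1 (-0.42), Gpt (-0.14), Glud1 (-0.04) and Got2 (0.03), nor did the scaffold gene Dlg1 (-0.27), nor any of 4 further metabotropic receptor genes and scaffolds. No gene of the lists passed between genotypes in white matter.

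The genes with the most similar profile over 53 cluster-by-library sums, by Pearson correlation of log2 CPM among 7900 genes, were listed for 4 members. For Slc1a2 they included Sparcl1 (r = 0.915), which is on the list of astrocyte markers, and Cpe (0.866). Glul went with Tmem144 (0.870), Hcn2 (0.796) and Arhgap21 (0.782), Grm7 with Lhfpl2 (0.782), Cyp2j6 (0.780) and Fgfr2 (0.779), and Grm3 with Wapl (0.806), Zfp638 (0.805) and Sfpq (0.802). The sums share libraries and tissue, so these values describe these data alone.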

How the data were processed

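Single cells of gray and white matter were counted by the authors with Cell Ranger against mm10. The study's methods name a different version of it for the wild type and for each Rag1-/- experiment. The deposited counts are whole UMIs per gene and cell, without normalization, after cells had been filtered on their genes, UMIs and mitochondrial share. That filter differed by genotype and, by the study's methods, between the 2 wild-type experiments. The largest cell of a library held 23094 and 29684 UMIs in wild-type libraries 1 and 49462 and 49480 in wild-type libraries 2 (gray and white matter). In Rag1-/- it held 19911 to 19979. The Oligo clusters are the authors' own, and 222 of their cells are not in the tables of all cell types. These are 124 and 98 cells of Rag1-/- white matter libraries 2 and 3, for which the largest values above need not hold. No doublet caller was run, and 23 astrocytes are also in the oligodendrocyte table.

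Counts were summed per library and cell type or cluster (at least 20 cells) and tested with edgeR 4.0.16 (R 4.3.3). The model had 4 groups, genes passed filterByExpr, TMM scaled the libraries, and two-sided quasi-likelihood p-values were adjusted by Benjamini-Hochberg over all genes tested. SE is the log2 difference divided by the square root of F. The lone Rag1-/- gray matter library was assumed to vary like the others. Groups come from the sample labels. The members and lists were chosen with earlier results of these data known. The list genes named are those called in oligodendrocytes or with at least 50 CPM there.

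The gray and white matter libraries of a wild-type pool shared their mice, and their deviations from the group means correlated across 7908 genes (r = 0.49, 1 value for 2 libraries a group). The experiment within each genotype was a block in an alternative with 2 residual degrees of freedom (1 in astrocytes). Rag1-/- white matter libraries 2 and 3, from different mice, form 1 block with no gray matter, so the blocked Rag1-/- contrast rests on 1 pair. DESeq2 1.42.0 was another alternative. Scripts were tested on simulated counts. Gene positions are from GENCODE for GRCm38, and the promoters from RefSeq for GRCm38.p6, where all 7 genes matched by symbol, though the window of Slc1a2 lies 47779 bases inside the annotated gene. Several members overlap other genes, among them Slc1a2 and Grm7 antisense genes and Glul the gene Teddm2 on the other strand, and whether strand was used in counting is not given in the sources used here. Results for 1 gene with a profile like that of a member are left out of the text.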

Additional observations from a re-analysis of the deposited data

How the results depend on the processing

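None of the results computed under the alternatives reversed its direction with a call, and the averaged tissue calls of Glul and Grm7 in oligodendrocytes held under every alternative run. Counts of calls moved more. The counts of members below stand without the share of all genes called under the same setting. They show how far calls moved and are no result about the members. Wild-type white and Rag1-/- gray matter astrocytes are 1 library each. Without the second Rag1-/- experiment, Rag1-/- white matter is also 1 library in every cell type. In astrocytes the spread then comes from the 2 wild-type gray matter libraries alone, as it does for the wild type with the compared groups alone. The astrocyte counts under these settings therefore show little about whether the groups differ. In oligodendrocytes 131 genes passed between tissues in the wild type, 57 in Rag1-/-, 431 averaged over genotypes and 119 between genotypes. In astrocytes these counts were 1, 0, 314 and 16, and in microglia 618, 95, 1241 and 136. Within clusters the members passed 4, 3, 10 and 0 times in the same order.

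With DESeq2, oligodendrocytes gave 281 calls with 6 members in the wild type, 203 calls with 4 members in Rag1-/-, 189 between genotypes and 3 for the difference of tissue contrasts. Astrocytes gave 230 calls with 4 members in the wild type, 20 calls with 1 member in Rag1-/-, 5 members averaged over genotypes and 55 calls between genotypes. Microglia gave 342 calls with 1 member in Rag1-/-, 2 members averaged, 242 calls between genotypes and 3 for the difference of contrasts. Within clusters the members passed 5 times in Rag1-/-.

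Without the filter on low counts, Rag1-/- oligodendrocytes gave 140 calls, and astrocytes gave 531 calls with 1 member in the wild type, 54 calls with 1 member in Rag1-/-, 977 calls with 5 members averaged and 103 calls between genotypes. Microglia then gave 170 calls in Rag1-/- and 216 between genotypes, and members passed within clusters 14, 15, 22 and 7 times, and 1 time for the difference of contrasts.

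With the experiment as a replicate block, oligodendrocytes gave 1048 calls with 6 members in the wild type, 474 calls with 5 members in Rag1-/-, 1460 averaged and 6 for the difference of contrasts. Astrocytes with the block gave 886 calls with 1 member, 351 calls with 2 members and 1345 calls with 5 members, and microglia gave 2 members in the wild type and 2 averaged. Within clusters members passed 20, 19 and 21 times with the block. Genotype could not be tested with the block.

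With the compared groups alone, the wild type gave 62 calls in oligodendrocytes, 845 calls with 2 members in astrocytes and 307 in microglia, and astrocytes gave 5 calls between genotypes. Without the second Rag1-/- experiment, an alternative chosen after seeing the data, oligodendrocytes gave 62 calls in the wild type, 8 calls with 1 member in Rag1-/-, 124 averaged and 58 between genotypes. Astrocytes then gave 856 calls with 2 members, 434 calls with 2 members, 1079 calls with 4 members, 233 between genotypes and 186 for the difference of contrasts. Microglia gave 384, 61, 593 with 2 members, 77 and 1, and members passed within clusters 8 times in the wild type.

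With at least 6 UMIs of the rule genes, astrocytes gave 11 calls in the wild type, 2 in Rag1-/- and 57 averaged. Wild-type astrocytes gave 28 calls without cells of the oligodendrocyte table and 2 with the members and astrocyte markers out of the library size. Gria2 in gray matter oligodendrocytes was at 17.5 CPM as a mean over cells, against 13.4 CPM from summed counts.

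Leaving out 1 library at a time, oligodendrocytes gave 2 to 142 calls with 0 to 5 members in the wild type, 16 to 264 with 1 to 4 in Rag1-/-, 160 to 638 with 2 to 6 averaged, 0 to 1 member between genotypes and 0 to 4 calls for the difference of contrasts. Astrocytes gave 0 to 636 calls with 0 to 2 members, 0 to 111 with 0 to 1, 0 to 1050 with 0 to 4, 4 to 106 with 0 to 1 between genotypes and 0 to 2 for the difference of contrasts. Microglia gave 37 to 635 calls with 0 to 2 members, 49 to 148 calls, 428 to 1210 calls with 1 to 2 members and 0 to 3 for the difference of contrasts. Within clusters members passed 0 to 8, 2 to 6, 6 to 13 and 0 to 7 times. The cause of these shifts was not tested. Gria2, Gria4 and Grm7 rest on few UMIs per cell, and astrocytes of wild-type white matter on 39 cells.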

Other observations

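The glutamate pathway lists were also read in the other cells. In astrocytes 55 list genes were tested between the tissues averaged over genotypes, of which 1 was called higher (Slc38a1) and 1 lower (Slc25a18) in white matter, beside 2.67% of all genes. In microglia 46 were tested and 2 were called lower, Abhd6, which hydrolyses the endocannabinoid 2-arachidonoylglycerol, and Gclc, a subunit of the enzyme that starts glutathione synthesis, beside 9.79% of all genes. Oligodendrocyte markers were called higher in white matter for 4 of 11 genes in astrocytes and for 4 of 11 in microglia, and lower for none in either.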
